A study of Homo sapiens with 6 samples.

Results

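Described here are genes of the integrated stress response and of transfer RNA (tRNA) charging in myeloma cells that had met a proteasome inhibitor and were then given all-trans retinoic acid (ATRA). A list of 53 gene symbols was taken, and a gene counted as measured when the array annotation gave at least 1 probe set that symbol alone. That held for 39 of the 53, out of 14884 genes measured in all. They fall into 12 of 18 stress regulators, 10 of 16 genes of amino acid synthesis and one-carbon metabolism, and 17 of 19 cytosolic aminoacyl-tRNA synthetases. CHAC1, PPP1R15A, NUPR1, CEBPB, CEBPG, EIF2S1, MTHFD1, MTHFD2, ALDH1L2, ALDH18A1, GPT2, GOT1, FARSA and FARSB were not analysed here, and DDIT4 and SESN2 were left out of the list.

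The 6 arrays held RNA of MM.1S, an established line grown from a human myeloma. Every sample, controls included, had a 1 h pulse of Cfz (the usual abbreviation of carfilzomib, a proteasome inhibitor). The cells then stayed 12 h in 10 µM ATRA (3 arrays) or in the solvent DMSO (3 arrays). Cells without Cfz were not analysed here, so the values show how ATRA differed from DMSO after the pulse and not what the pulse itself did. No label tells whether replicates were grown apart, so p-values measure only the spread between these samples, which may be technical. Each value below is an intensity on a linear scale as the authors deposited it or its log2, and a difference is ATRA minus DMSO on the log2 scale.

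The integrated stress response starts at the translation factor eIF2. Its alpha subunit is phosphorylated by HRI under heme shortage or mitochondrial stress, by PERK when proteins misfold in the endoplasmic reticulum, by GCN2 when tRNAs are uncharged and by PKR when double-stranded RNA is present. General translation then falls while the mRNA of ATF4, a transcription factor, is translated more, and ATF4 switches on genes for making amino acids and for charging tRNAs. Myeloma cells secrete large amounts of antibody protein, and proteasome inhibitors are known to engage this pathway in them.

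Of the 39 measured genes, 1 rose and 1 fell after ATRA in limma's test with Benjamini-Hochberg adjustment over all 14884 genes at 0.05. Among all genes 1.73% rose and 2.07% fell, so these calls lie close to the background. WARS1, the tryptophanyl-tRNA synthetase, rose 1.42-fold, and SHMT1, the cytosolic serine hydroxymethyltransferase, was 1.56-fold lower. Most other differences were small and ran upward. In mean, 27 genes were higher and 12 lower, while 47.1% of all genes were higher. For 16 genes all 3 ATRA values lay above all 3 DMSO values, and for 4 genes all lay below. Over all genes these shares were 9.86% and 14.8%. In RNA of a whole culture, a change in each cell and a change in the share of cells that carry the RNA cannot be told apart.

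The 3 groups of genes had medians of different size, which were not tested against each other. The median difference was 0.18 for the synthetases, 0.13 for amino acid synthesis and 0.04 for the stress regulators, against -0.01 for all genes. Without ATRA replicate 2 the synthetase median was 0.12 and the amino acid median 0.20, without ATRA replicate 1 the amino acid median was 0.076, and the stress regulator median became -0.01 without DMSO replicate 1 and -0.0045 without DMSO replicate 2. Brightness bears on these shares, since dim probe sets are noisier. The brightest of 16 measured markers of other cell types, CD8A, averaged a log2 intensity of 4.91, and 34 of the 39 genes lay above it. Of the 6058 genes above that level 3.47% rose and 4.39% fell. Of the 34, 15 were higher and 4 lower without overlap, where 14.0% and 27.5% of the 6058 were.

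**Figure D1:**
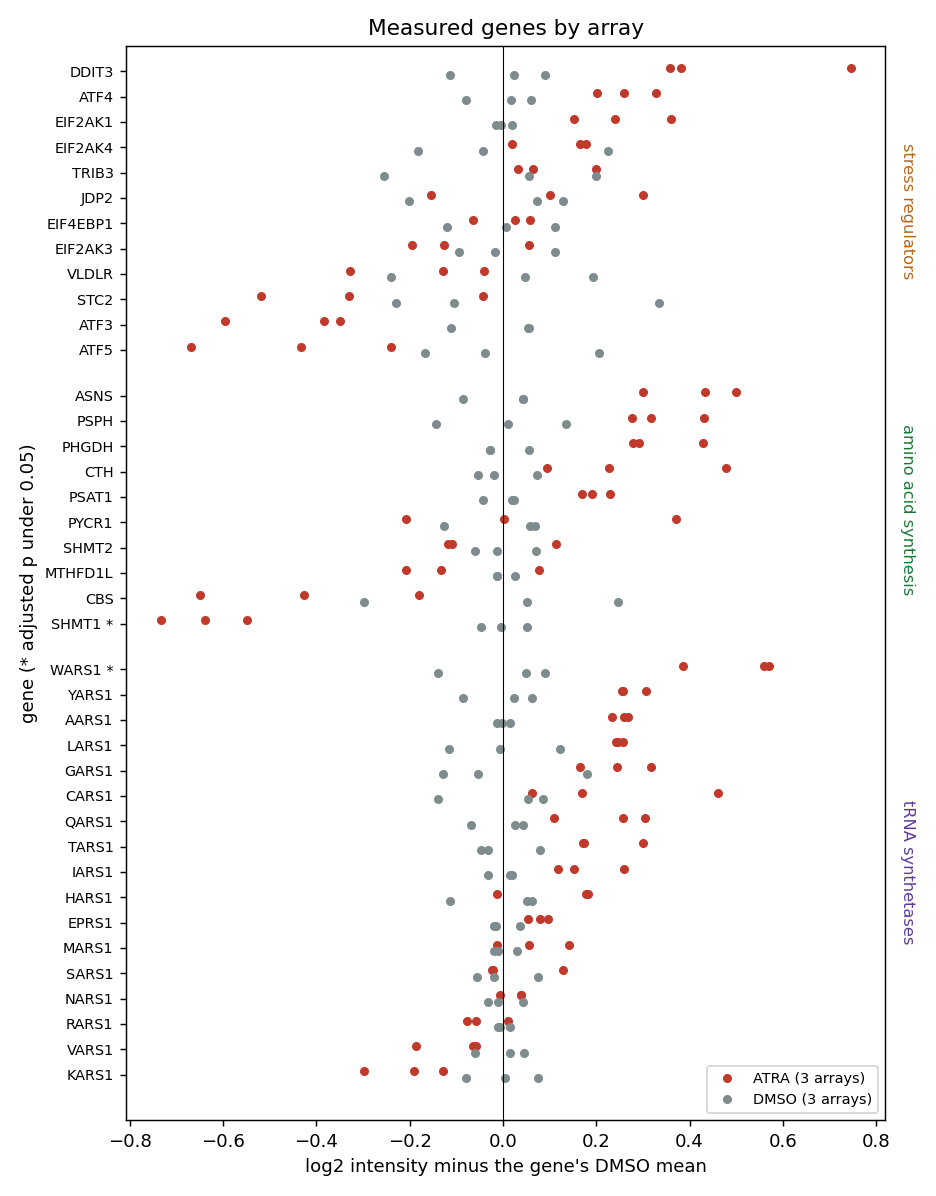
Each row is a gene and each point an array, placed at its log2 intensity minus the gene's DMSO mean, with ATRA in red above DMSO in grey. The synthetase rows lean right in 14 of 17 cases, and SHMT1 and WARS1, marked with a star, are the genes with an adjusted p under 0.05.

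**Figure D2:**
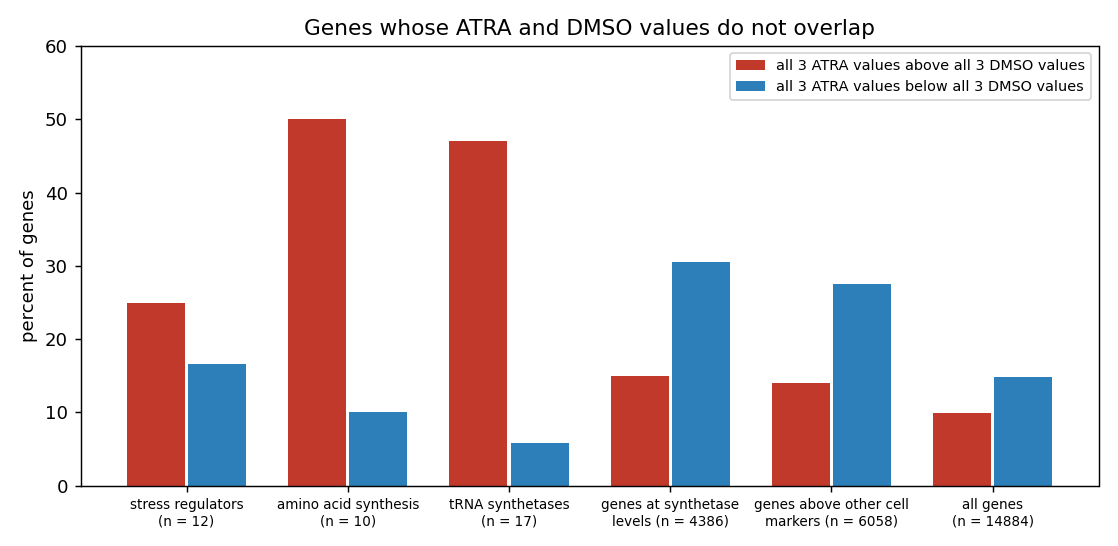
Bars give the percent of genes whose 3 ATRA values all lie above (red) or below (blue) their 3 DMSO values. The bars of the synthetases are 47.1% and 5.88%, and those of genes at the same levels 15.0% and 30.6%.

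Among the stress regulators 0 of 12 passed in either direction by limma. For 3 of the 12 all ATRA values were above all DMSO values and for 2 below, where 9.86% and 14.8% of all genes were. Of the 8 above CD8A, 2 were higher and 2 lower without overlap, where 14.0% and 27.5% of genes above CD8A were. Unadjusted, 3 higher and 2 lower genes had p under 0.05, where 7.52% and 10.4% of all genes did. With eBayes run with a variance trend and robust settings 2 rose and 1 fell. Of all genes, which are not matched for brightness, 3.32% and 5.60% did. The 5 measured transcription factors had differences of both signs. ATF4, the main effector, had intensities of 599, 654 and 623 with ATRA, against 527, 493 and 543 with DMSO. Every ATRA array was above every DMSO array. The difference was 0.26 (SE 0.091, adjusted p = 0.188 by limma), and it passed in 3 of 9 other settings, among them the variance trend (adjusted p = 0.0110). With 1 array left out it did not pass in any of the 6 limma fits (0.255 to 0.396).

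DDIT3 encodes CHOP, a factor induced by ATF4 that can drive cell death under lasting stress. It had 38.1, 29.6 and 29.1 with ATRA, against 24.2, 21.0 and 23.1 with DMSO. The groups did not overlap, with ATRA replicate 1 the highest. The difference of 0.50 (SE 0.13) did not pass (limma adjusted p = 0.0979) but did in 1 of 8 other settings, and the mean log2 level of 4.75 lay under that of CD8A, so its size is uncertain.

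ATF3, an early stress factor that can repress its targets, and ATF5, a factor translated like ATF4, went the other way. ATF3 had 46.6, 45.5 and 39.3 with ATRA, against 61.7, 55.0 and 61.8 with DMSO. ATF5 had 95.4, 112 and 128 with ATRA, against 175, 135 and 148 with DMSO. Neither pair of groups overlapped. The differences were -0.44 (SE 0.11, limma adjusted p = 0.0751) for ATF3 and -0.45 (SE 0.15, adjusted p = 0.166) for ATF5. ATF3 passed in 3 of 9 other settings, with adjusted p between 0.0165 and 0.167 over the 9 and 0.0524 with the variance trend. ATF5 passed in 1 of 9, the variance trend (0.0476). JDP2, a related repressor, had overlapping groups (0.08) and a mean log2 level of 4.43, under that of CD8A.

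Of the eIF2 kinases, HRI (EIF2AK1) was the one whose groups did not overlap. It had 1135, 1205 and 1310 with ATRA, against 1011, 1018 and 1034 with DMSO, a difference of 0.25 (SE 0.093, limma adjusted p = 0.214) that passed with the variance trend (0.00763). PERK (EIF2AK3) at -0.09 and GCN2 (EIF2AK4) at 0.12 had overlapping groups, as did PKR (EIF2AK2) at -0.09, which stands outside the list. Whether the kinases differed from each other was not tested.

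The other stress regulators lay between -0.30 and 0.10 with overlapping groups. TRIB3, a pseudokinase that feeds back on ATF4, stood at 73.0 ± 4.56 with ATRA and 68.6 ± 10.7 with DMSO (SD, n = 3 each), a difference of 0.10. EIF4EBP1, a repressor of cap-dependent translation, was at 163.1 ± 7.08 and 162.7 ± 13.0 (0.01). STC2, a secreted glycoprotein, had 13.5, 15.4 and 18.8 with ATRA, against 18.0, 16.5 and 24.4 with DMSO (-0.30, SE 0.18, limma adjusted p = 0.461). STC2 and VLDLR (-0.17), a lipoprotein receptor, were both under the level of CD8A.

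**Figure D3:**
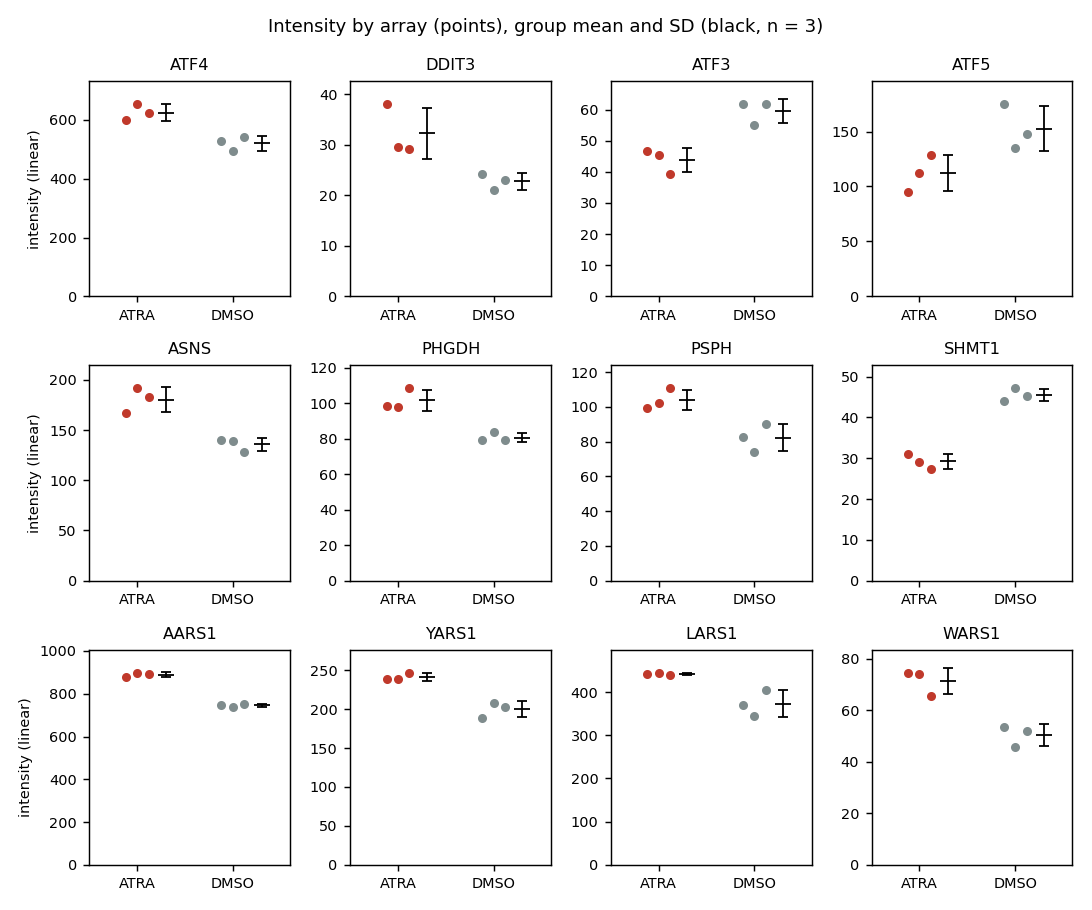
Points are the linear intensities of single arrays, and the black mark and bar are the group mean and SD (n = 3), with ATRA left of DMSO. The 12 genes are a selection whose groups do not overlap, while the groups of 19 of the 39 measured genes do. Over all genes 9.86% were higher and 14.8% lower without overlap. ATF3, ATF5 and SHMT1 are the 3 shown with lower values under ATRA.

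Of the 10 genes of amino acid synthesis 0 rose and 1 fell by limma, where 1.73% and 2.07% of all genes did. For 5 of them all ATRA values were above all DMSO values and for 1 below, where 9.86% and 14.8% of all genes were. Unadjusted, 4 higher and 2 lower had p under 0.05, where 7.52% and 10.4% of all genes did. SHMT1, which passes a carbon unit from serine to folate in the cytosol, fell to 31.1, 29.2 and 27.4 with ATRA, against 44.0, 47.1 and 45.4 with DMSO. The gap between the groups was wider than the range within either. The difference was -0.64 (SE 0.093, limma adjusted p = 0.0129), the largest in size among the 39 genes and 463rd among all genes. The mean log2 level of SHMT1 was 5.19, little above the 4.91 of CD8A, and its ATRA mean of 4.87 lay under that. With log2(value + 16) the difference was -0.44, so its size is uncertain. It passed in 8 of 9 other settings, but not with the replicate number as a block (limma adjusted p = 0.0652). With 1 array left out it passed in 2 of 6 fits. It did not without ATRA replicate 3 (adjusted p = 0.0524) or DMSO replicate 1 (0.0509), 2 (0.0560) or 3 (0.0573).

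The other measured folate enzymes had small differences with overlapping groups. SHMT2, the mitochondrial counterpart, was at 73.5 ± 6.86 with ATRA and 75.2 ± 3.49 with DMSO (SD, n = 3 each), a difference of -0.04 with adjusted p = 0.893 by limma whose sign turned with quantile normalization (0.00147). MTHFD1L, a mitochondrial formate-making enzyme, was at -0.09 with overlapping groups. The difference between SHMT1 and SHMT2 was not tested.

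The 3 enzymes that make serine from a glycolytic intermediate were each higher with ATRA on every array. Without overlap 9.86% of all genes were higher, and 14.0% of those above CD8A. PHGDH, the first step, had 98.7, 97.8 and 108 with ATRA, against 79.1, 83.8 and 79.1 with DMSO (0.33, SE 0.091, limma adjusted p = 0.106). PSPH, the last step, had 99.4, 102 and 111 with ATRA, against 82.6, 74.3 and 90.1 with DMSO (0.34, SE 0.11, adjusted p = 0.145). PSAT1, the middle step, was at 914.8 ± 19.1 with ATRA and 798.5 ± 20.3 with DMSO (SD, n = 3 each), a difference of 0.20 with adjusted p = 0.278. None of these passed by limma as fitted or with 1 array left out. Of 9 other settings PHGDH passed in 3 (lowest adjusted p 0.0184), PSPH in 1 (0.0372) and PSAT1 in 2, with its lowest under the variance trend (0.0128).

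ASNS, the asparagine synthetase and a classical ATF4 target, had 167, 191 and 183 with ATRA, against 139.7, 139.5 and 128 with DMSO. Its ATRA arrays were all above its DMSO arrays. The difference was 0.41 (SE 0.097), short of the threshold by limma (adjusted p = 0.0719) and past it in 6 of 9 other settings, from 0.0104 to 0.161 over the 9. With 1 array left out it did not pass in any of the 6 fits (0.104 to 0.204).

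CTH and CBS, the enzymes that turn homocysteine into cysteine, differed in sign. CTH, the second step, had 58.9, 53.8 and 70.2 with ATRA, against 48.6, 53.0 and 49.7 with DMSO (0.27, SE 0.12, limma adjusted p = 0.304). CBS, the first step, had 12.2, 14.2 and 16.9 with ATRA, against 22.7, 15.6 and 19.8 with DMSO (-0.42, SE 0.17, adjusted p = 0.267), with overlapping groups and a level under that of CD8A. PYCR1, which completes proline, was at 0.06, and its ATRA values ranged from 78.8 to 118.

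The cytosolic synthetases, which join each amino acid to its tRNA, leaned upward. In mean 14 of 17 were higher, where 37.7% of the 4386 genes in the same range of levels were, and with quantile normalization RARS1 joined them (0.00283). For 8 of the 17 all ATRA values were above all DMSO values and for 1 below, where 15.0% and 30.6% of those 4386 genes were. The median difference of those genes was -0.06. By limma 1 synthetase rose and 0 fell, where 3.83% and 4.90% of the 4386 did. Unadjusted, 4 higher and 0 lower had p under 0.05, where 10.5% and 20.6% of the 4386 did. With the variance trend 6 rose and 0 fell, where 3.32% and 5.60% of all genes did. That setting lets bright probe sets have smaller errors, and its share among the 4386 genes is not given here. The median log2 level was 8.81 for the synthetases and 4.19 for all genes, so these last shares are not matched for brightness.

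ATF4 and its C/EBP partners bind a composite element whose core is TGATGNAA, read TTNCATCA from the other strand. The core was searched on both strands in RefSeq windows (build GRCh38.p14) that run 250 bases before to 50 after an annotated start. At least 1 window was held for 14 of the 17 synthetases, and the core stood in 7 of these 14 genes. Of 10749 measured genes with a window 3.22% had it. By window, the core stood in 7 of 19 synthetase windows (36.8%) and in 3.62% of all 35116 windows. LARS1, VARS1 and YARS1 have no window. The stretches are shown because they hold the matches behind that count. Each is 5′ to 3′ on the strand of the gene, with the core in capitals.
AARS1, chr16:70289675-70289704, minus strand: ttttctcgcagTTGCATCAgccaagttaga
CARS1, chr11:3057407-3057436, minus strand: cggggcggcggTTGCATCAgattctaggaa
GARS1, chr7:30594834-30594863, plus strand: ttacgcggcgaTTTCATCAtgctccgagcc
IARS1, chr9:92293692-92293721, minus strand: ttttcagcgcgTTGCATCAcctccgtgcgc
MARS1, chr12:57488053-57488082, plus strand: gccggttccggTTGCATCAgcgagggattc
NARS1, chr18:57621804-57621833, minus strand: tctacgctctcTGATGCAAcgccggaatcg
TARS1, chr5:33440956-33440985, plus strand: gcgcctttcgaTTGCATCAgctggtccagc

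In AARS1 the core lies 187 bases upstream of the start, in GARS1 33, in IARS1 13, in MARS1 4 and in CARS1 2 bases upstream, while in TARS1 and NARS1 it begins 2 and 14 bases past the start. CARS1, GARS1 and TARS1 each have 2 windows, and the core was found in 1 of them. Distances count from the start of that window, which for GARS1 is the downstream one. The 7 synthetases with the core had differences of 0.02 to 0.25 with a median of 0.21, and all 7 were above 0. The 7 with a window but without the core lay between -0.21 and 0.51 with a median of 0.08, and 5 were above 0. These ranges overlap and no test was made. A match is only a match of letters, and its absence says only that these letters are not in the window.

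The upstream parts of ASNS and AARS1 are shown whole, as the enzyme long known to carry such an element and as the synthetase with the lowest adjusted p under the variance trend. ASNS has 2 windows, and the core was found in 1 of them, the one shown, where it begins 68 bases upstream of the start. Among the other measured genes it was found in ATF3, JDP2 and MTHFD1L, and 11 of 31 measured genes with a window held it in all.
ASNS, chr7:97872409-97872658, minus strand: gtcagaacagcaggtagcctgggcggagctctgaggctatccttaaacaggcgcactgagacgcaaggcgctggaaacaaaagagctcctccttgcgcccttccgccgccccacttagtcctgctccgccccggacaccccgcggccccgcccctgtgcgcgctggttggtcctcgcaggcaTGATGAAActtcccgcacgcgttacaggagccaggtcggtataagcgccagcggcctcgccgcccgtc
AARS1, chr16:70289507-70289756, minus strand: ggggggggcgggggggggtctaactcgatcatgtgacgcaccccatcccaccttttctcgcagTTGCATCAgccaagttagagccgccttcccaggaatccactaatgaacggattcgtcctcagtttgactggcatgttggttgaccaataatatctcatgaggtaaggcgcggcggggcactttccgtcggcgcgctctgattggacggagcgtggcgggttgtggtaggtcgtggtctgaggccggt

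WARS1 was the synthetase that passed the test. Its intensities were 74.7, 74.1 and 65.7 with ATRA, against 53.5, 45.6 and 52.1 with DMSO, and the groups did not overlap. The difference was 0.51 (SE 0.11, limma adjusted p = 0.0490). The call is fragile, since it ended whichever array was left out (adjusted p 0.0769 to 0.147). WARS1 has 2 probe sets. The one reported averaged a log2 intensity of 5.90. The other, at 3.38, under CD8A, had 9.99, 9.28 and 8.99 with ATRA, against 9.48, 10.1 and 16.2 with DMSO (-0.30), and with both averaged the difference was 0.10 (adjusted p = 0.748).

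WARS1 is also known as a gene induced by interferon. It has 2 annotated starts, and neither window held the ATF4 core. The window of the downstream start held, searched on both strands, the core that interferon regulatory factors (IRFs) bind. This second motif was chosen after the values were seen. It stood in 1 of 19 synthetase windows (5.26%) and in 3.57% of all windows. Whether the motif or interferon bears on the difference of WARS1 was not tested. The upstream part is shown for that match, in capitals, 55 bases before the start.
WARS1, chr14:100375348-100375597, minus strand: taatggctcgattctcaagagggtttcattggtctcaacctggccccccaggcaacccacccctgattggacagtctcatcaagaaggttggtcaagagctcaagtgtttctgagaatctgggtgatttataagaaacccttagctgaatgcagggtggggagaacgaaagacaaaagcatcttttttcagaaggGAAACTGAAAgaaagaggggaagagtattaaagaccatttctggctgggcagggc

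AARS1, for alanine, had 877, 899 and 893 with ATRA, against 745, 739 and 754 with DMSO. The gap between the groups was wider than the range within either, and the difference was 0.25 (SE 0.082, limma adjusted p = 0.159). With 1 array left out it stayed between 0.25 and 0.26. With the variance trend, which lets bright probe sets have smaller errors, its SE was 0.042 and its adjusted p 0.00195, the lowest among the 39 genes.

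YARS1, for tyrosine, and LARS1, for leucine, also had groups that did not overlap. YARS1 had 238, 239 and 247 with ATRA, against 188, 208 and 203 with DMSO (0.27, SE 0.088, limma adjusted p = 0.160). LARS1 had 442, 445 and 440 with ATRA, against 371, 344 and 406 with DMSO (0.25, SE 0.096, adjusted p = 0.231). Of 9 other settings YARS1 passed in 4 and LARS1 in 1, both with the variance trend (0.0342 and 0.0361).

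GARS1, for glycine, had 810, 857 and 900 with ATRA, against 819, 697 and 661 with DMSO. DMSO replicate 1 exceeded the lowest ATRA array (0.24, SE 0.11, limma adjusted p = 0.318). CARS1, for cysteine, had 90.6, 120 and 97.6 with ATRA, against 78.9, 90.1 and 92.1 with DMSO (0.23, SE 0.13, adjusted p = 0.423), with ATRA replicate 1 inside the DMSO range.

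QARS1 (0.22), TARS1 (0.21), IARS1 (0.18) and EPRS1 (0.08), for glutamine, threonine, isoleucine and glutamate with proline, complete the 8 whose ATRA values were all higher. TARS1 and IARS1 passed with the variance trend (adjusted p = 0.0272 and 0.0316). HARS1 (0.12), MARS1 (0.06), SARS1 (0.03), NARS1 (0.02), RARS1 (-0.04) and VARS1 (-0.10), for histidine, methionine, serine, asparagine, arginine and valine, had overlapping groups. The second probe set of VARS1 was at -0.13.

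KARS1, for lysine, was the 1 synthetase lower without overlap. It had 412, 431 and 383 with ATRA, against 446, 496 and 472 with DMSO, so every ATRA array was below every DMSO array. The difference was -0.21 (SE 0.095, limma adjusted p = 0.319).

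Several synthetases sit together in a multi-synthetase complex. Its 7 measured enzymes (EPRS1, IARS1, KARS1, LARS1, MARS1, QARS1, RARS1) ranged from -0.21 to 0.25 with a median of 0.08. The 10 outside it ranged from -0.10 to 0.51 with a median of 0.22. This grouping was made with the values known and was not tested.

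**Figure D4:**
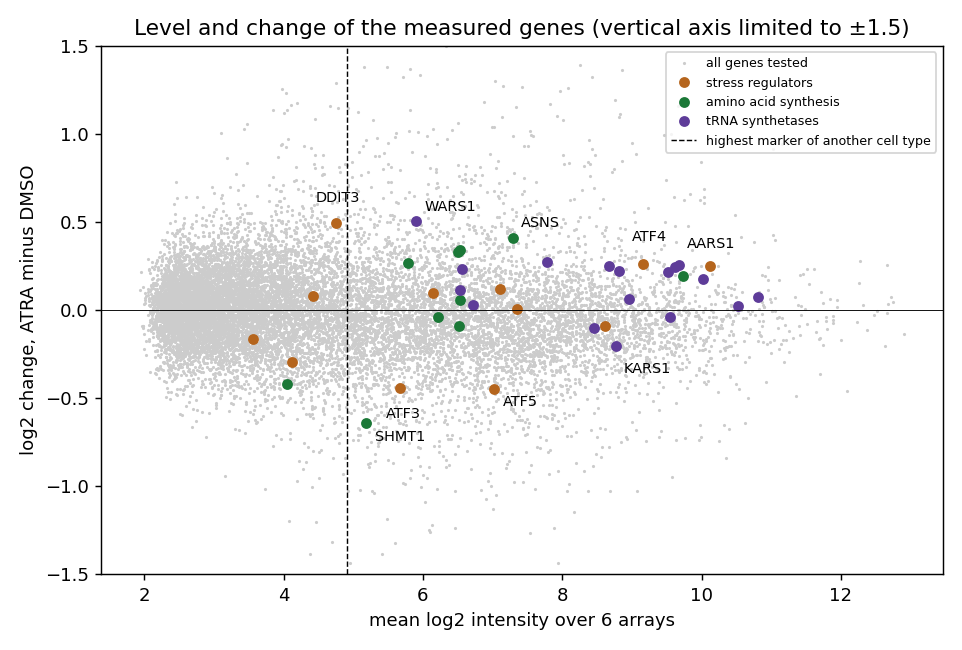
Each grey point is 1 of the 14884 genes, at its mean log2 intensity over 6 arrays and its ATRA minus DMSO difference, with the measured genes coloured by group. The synthetases lie between log2 levels of 5.90 and 10.81, all right of the dashed line at 4.91, and most sit slightly above 0.

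Over all 39 genes, 10 rose and 2 fell with the variance trend, where 3.32% and 5.60% of all genes did. Those that rose were ATF4, EIF2AK1, ASNS, PSAT1, AARS1, IARS1, LARS1, TARS1, WARS1 and YARS1, and those that fell SHMT1 and ATF5. The count of calls thus depends on the variance setting. The median log2 level was 7.11 for the 39 genes and 4.19 for all genes, so the shares are not matched for brightness.

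Further lists of genes around the pathway were read in the same way. Of 18 other genes of the eIF2 cycle 6 were measured and 0 passed by limma, with 0 at an unadjusted p under 0.05. OMA1, a mitochondrial protease that signals stress to HRI, had 115, 123 and 143 with ATRA, against 96.7, 96.5 and 120 with DMSO (0.28). IMPACT, an inhibitor of GCN2 activation, had 96.6, 83.8 and 94.5 with ATRA, against 80.3, 76.4 and 85.8 with DMSO (0.18). These were the largest differences of the 6, and both pairs of groups overlapped. Of 10 synthetase partners and related tRNA genes 5 were measured and 0 passed, 1, a lower one, having an unadjusted p under 0.05. For both lists the shares of all genes were 1.73% and 2.07% adjusted, and 7.52% and 10.4% unadjusted. PSTK, a kinase in selenocysteine charging, had 25.6, 24.1 and 27.3 with ATRA, against 32.7, 29.4 and 27.8 with DMSO (-0.22). TRMT1, a tRNA methyltransferase, had 654, 649 and 624 with ATRA, against 711, 760 and 759 with DMSO (-0.21). Neither pair of groups overlapped.

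Among 27 other genes described as ATF4 targets, 17 were measured, 2 rose and 0 fell by limma, where 1.73% and 2.07% of all genes did. KLHL24, a ubiquitin ligase adaptor, had 135, 150 and 109 with ATRA, against 59.0, 70.9 and 58.4 with DMSO. The difference was 1.06 (SE 0.15, limma adjusted p = 0.0104), which did not pass without DMSO replicate 1 (0.0533) or 3 (0.0515). XBP1, a factor of the unfolded protein response, had 1690, 1730 and 1774 with ATRA, against 1199, 1223 and 1146 with DMSO. The difference was 0.54 (SE 0.085, adjusted p = 0.0175), a call that ended with any array left out (0.0584 to 0.0758). GDF15 (-0.03) and FGF21 (0.24), secreted stress hormones, lay under the level of CD8A. The 11 amino acid transporters and 17 mitochondrial synthetases listed were not analysed here.

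Arrays of 1 group correlated at 0.990 to 0.992 and arrays of different groups at 0.985 to 0.987 (across genes, which are not independent replicates). Of 7 measured plasma cell markers 6 lay above CD8A, and POU2AF1 did not. Of the 7, CD38 (1.95), SDC1 (0.84) and XBP1, which also stands among the other ATF4 targets, rose by limma and 0 fell. Of all genes 1.73% rose and 2.07% fell, and of those above CD8A 3.47% and 4.39%. Without overlap 4 of the 7 were higher and 3 lower, where 9.86% and 14.8% of all genes were. The lower ones were SLAMF7 (-0.31), POU2AF1 (-0.25) and IRF4 (-0.17). With the variance trend SLAMF7 and IRF4 fell and MZB1 (0.25) also rose, where 5.60% and 3.32% of all genes, not matched for brightness, did. The part of the 7 markers in the differences above was not tested. The 16 markers of other cell types, between log2 levels of 2.35 and 4.91, had 0 calls by limma, with 1 at an unadjusted p under 0.05. With 3 arrays a group, precision is limited by their number.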

How the data were processed

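Total RNA of 6 samples was labelled with biotin, per the labels. The authors deposited linear intensities of 53617 probe sets for each array. No value was at or below 0 and the highest was 14038. RMA and limma are named in the submitters' processing notes, without role or version. The genome build is not given in the sources used here. Values were turned to log2 with no pseudocount.

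Of the probe sets 16098 (30.0%) had 1 symbol, 0 had several and 37519 are unnamed here. All named ones matched a RefSeq gene table by Entrez ID. Each of 14884 genes was represented by its probe set with the highest mean. ATRA and DMSO were compared with limma 3.58.1 in R 4.3.3 (lmFit, eBayes, 2 groups of 3, no block, two-sided). P-values were adjusted by Benjamini-Hochberg across the 14884 genes. The steps were tested on simulated data. SDs are over 3 arrays and folds are ratios of geometric means.

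Members and gene lists were chosen with earlier results of these data known. Values by array were given for called members, for ATF4, for the 6 largest differences in each group and, of the lists around the pathway, for called genes or the 2 largest differences, and for further genes picked after their values were seen (KARS1 among them). Alternatives were the replicate block, leaving out each array, dim-gene filters, other normalizations, eBayes with trend and robust, other uses of probe sets and a pseudocount of 16. A filter at the level of the brightest marker of another cell type was added after seeing the data.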

Additional observations from a re-analysis of the deposited data

How the results depend on the processing

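Counts of called genes depended on the setting. Neither called difference changed sign, except in the dim second probe set of WARS1 (-0.30), while 6 differences near 0 (TRIB3, EIF4EBP1, JDP2, SHMT2, PYCR1 and SARS1) did with 1 array left out and 2 (SHMT2 and RARS1) with quantile normalization. Against 1 gene that rose and 1 that fell, 6 rose and 2 fell among the brighter 50% of genes, 10 and 2 with eBayes with trend and robust, 7 and 2 with log2(value + 16), and 7 and 2 among genes above the brightest marker of another cell type. The count that rose was 2 among the brighter 75% of genes and with quantile normalization, and 0 with probe sets averaged. With 1 array left out 0 rose and 0 to 1 fell. Over all genes the count of 565 of 14884 became 207 to 317 with 1 array left out. In the first 4 settings above it became 1143 of 7442, 1327 of 14884, 1218 of 14884 and 1313 of 6058. Calls thus became more frequent among all genes too. With trend and robust 3.32% of all genes rose and 5.60% fell, and the split for the other 3 is not given here. Fewer arrays or fewer genes tested are part of those settings, and the cause of the other shifts was not tested. The replicate number as a block left 0 and 0 of the listed genes and 200 of all genes. The numbers were not taken to pair the arrays, since deviations of same-numbered arrays correlated at 0.00867 to 0.017, although each ATRA array correlated best with its own number, a hint from the data and not from the design. Group medians ranged over left-out arrays from -0.012 to 0.035 (stress regulators), 0.076 to 0.20 (amino acid synthesis) and 0.12 to 0.20 (synthetases). Among the brighter 50% the stress regulator median became 0.090 and the amino acid median 0.20, as it did above the marker level. The synthetase median was 0.23 with quantile normalization and 0.12 with probe sets averaged. For the 24 genes of the naming rule, 326 values kept direction and side of the threshold, 29 came to pass and 23 no longer passed.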

Other observations

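Some further genes described as ATF4 targets were picked out after their values were seen. BCL2L11, which encodes the pro-apoptotic protein BIM, had 99.1, 109 and 89.2 with ATRA, against 78.0, 78.1 and 76.0 with DMSO, without overlap (0.35, limma adjusted p = 0.124). AKNA, a centrosomal protein, had 134, 127 and 134 with ATRA, against 174, 157 and 162 with DMSO (-0.32, adjusted p = 0.112). SQSTM1, the autophagy receptor p62, was at 838.0 ± 21.4 with ATRA and 884.8 ± 23.3 with DMSO (SD, n = 3 each; -0.08, adjusted p = 0.696).

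The 2 probe sets of TXNIP, a regulator of thioredoxin, disagreed in size. The brighter was at -0.06 (limma adjusted p = 0.797 over all named probe sets) and the dimmer at -0.56 (0.0759), with 57.3, 55.9 and 51.4 with ATRA, against 85.4, 67.2 and 92.3 with DMSO.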
